A study of Homo sapiens with 8 samples.

Results

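The clustered protocadherins were taken as every gene whose symbol carries a letter of the alpha, beta or gamma cluster and a number (PCDHA, PCDHAC, PCDHB, PCDHGA, PCDHGB or PCDHGC). Of 18508 genes analysed, 16 met this rule, and all 16 belong to the beta cluster (PCDHB1 to PCDHB16). The alpha and gamma genes gave 0 members and are not analysed here. Expression was measured on human Clariom S arrays in ASC52telo, a human adipose-derived stem cell (ADSC) line immortalized with hTERT, the catalytic part of telomerase. All cells were kept without serum for 24 h, then for 72 h with 1000 nM SAHA, with EtOH or with neither, and then for 24 h in fresh medium. SAHA is a hydroxamic acid that inhibits histone deacetylases, and EtOH is the vehicle in which it was dissolved. There were 3 SAHA, 2 EtOH and 3 untreated arrays, all of the same line, so the replicates carry no difference between donors. They are labelled as biological replicates, and differences between the replicate numbers had been taken out before deposit. The p-values measure only the spread left between arrays of this line.

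Protocadherins are adhesion proteins of the cadherin superfamily that bind the same protein on a neighbouring cell through their extracellular cadherin domains. The clustered genes lie side by side on the long arm of chromosome 5 and are best known from neurons, where each cell uses its own subset of their promoters and so gains a surface identity by which its branches avoid each other. Alpha and gamma transcripts join a variable exon to shared exons that encode a common intracellular part. Beta genes lack introns and shared exons, and each has a promoter and an intracellular part of its own. CTCF and the cohesin ring hold the promoters at distant enhancers, while DNA methylation and the chromatin protein SMCHD1 keep unused promoters silent. Histone acetylation marks the promoters in use, and the comparison of SAHA with controls asked how the RNA of each beta gene differed after the treatment. The RNA followed 24 h in fresh medium, and histone acetylation at that time was not measured here.

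A promoter sequence from RefSeq (GRCh38.p14, 250 bases before to 50 after the start of the gene) was at hand for 14 of the 16 genes, all on the plus strand of chromosome 5, but not for PCDHB6 and PCDHB11. Clustered protocadherin promoters are known for a conserved element with the letters CGCT at its core, which CTCF binds. The 8-letter word present in most of the 14 promoters was GTGGCGCT, with 1 other word in as many of them. It stood on the gene's strand in 13 of 14 promoters, in all but that of PCDHB1, and on the other strand (AGCGCCAC) in 0. Over all 35116 RefSeq promoters of this length, 1.15% held it on either strand. The shorter CGCT was in 14 of 14 promoters but also in 70% of all promoters, on either strand. GTGGCGCT contains CGCT, and since the word was picked for its frequency in these promoters, its count is a description and not a test. The letters between the word and the start of the gene ran up to 75, in PCDHB4. In PCDHB8 the word overlapped the start. The 250 bases before the start of PCDHB16, the gene with the largest difference in the SAHA cells, are shown first, with GTGGCGCT in capitals (chr5:141182137-141182386).
PCDHB16: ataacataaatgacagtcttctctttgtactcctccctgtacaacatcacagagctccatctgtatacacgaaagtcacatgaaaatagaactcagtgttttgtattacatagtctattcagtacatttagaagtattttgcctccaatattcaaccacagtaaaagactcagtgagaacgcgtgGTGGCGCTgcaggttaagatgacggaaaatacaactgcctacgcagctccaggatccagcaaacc
The word ended 57 bases before the start of PCDHB16. It is shown next with 18 bases on each side for PCDHB7 (chr5:141172560-141172603) and PCDHB10 (chr5:141192293-141192336), whose SAHA arrays also lay apart from the controls, for PCDHB9 (chr5:141187068-141187111), which lies between PCDHB16 and PCDHB10, and for PCDHB12 (chr5:141208637-141208680) and PCDHB14 (chr5:141223257-141223300), which lay above the median of all genes on every array.
PCDHB7: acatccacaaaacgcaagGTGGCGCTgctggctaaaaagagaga
PCDHB9: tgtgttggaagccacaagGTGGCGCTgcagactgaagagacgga
PCDHB10: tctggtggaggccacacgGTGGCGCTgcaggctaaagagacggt
PCDHB12: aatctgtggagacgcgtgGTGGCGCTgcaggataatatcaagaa
PCDHB14: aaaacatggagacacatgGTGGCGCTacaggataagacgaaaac
The 8 letters are the same in genes whose SAHA arrays lay apart from the controls (PCDHB7, PCDHB10, PCDHB16) and in genes whose arrays overlapped. Which factors bind there in these cells was not measured.

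The label of the cells was checked against markers. All 10 adipose stromal markers lay above the array median on all 8 arrays, among them THY1 (4.31 to 4.99), NT5E (6.38 to 6.91) and ENG (7.33 to 7.58), in log2 units. PTPRC of leukocytes (-0.47 to -0.03), CD34 (-0.24 to 0.23) and PECAM1 of endothelium (-0.24 to -0.04) lay below the array medians, which were 0.26 to 0.33. They are the defining markers of lists of 7 blood and 7 endothelial genes. Of these lists, 4 blood and 5 endothelial markers lay outside the dimmest 1 in 3 of all genes. Where the other blood and endothelial markers lay against the median is not given here. Of 13 neuronal markers, 12 lay above the array median on 0 arrays, RBFOX3 (-0.53 to 0.19) and SNAP25 (-0.09 to 0.19) included, and the synaptic vesicle gene SYP (-0.05 to 0.92) on 5. The mean over the arrays of each replicate number was equal in all 18508 genes, within 1e-10, so differences between the numbers had been taken out before deposit, a step that the methods leave unnamed. For SAHA against the combined controls the residual degrees of freedom were 6, and 4 once the replicate number was added as a block. The 3-group fit had fewer. Taking out the differences between the numbers used up degrees of freedom that the main fit still counts. Its p-values, and those of every other fit without the block, can therefore be too small. The SDs given for groups likewise hold only the spread left after that step. In RNA of whole cultures, fewer cells that use a promoter and less RNA per cell cannot be told apart. Beta genes are also similar in sequence, and how far a probe set reads more than 1 of them was not tested.

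The beta genes differed in where they stood on the arrays. PCDHB7, PCDHB11, PCDHB12, PCDHB14 and PCDHB16 lay above the array median on all 8 arrays. PCDHB1, PCDHB4, PCDHB6 and PCDHB15 lay below it on all 8, and the other 7 genes lay above it on some arrays. The log2 value of PCDHB15 stayed between -0.17 and -0.06, the narrowest range of the 16. PCDHB1 ran from -0.48 to 0.0063, PCDHB4 from -0.27 to 0.014 and PCDHB6 from -0.33 to 0.12. Values so low on the scale leave little room for a fall to be seen. PCDHB11 ran from 1.63 to 2.84 and PCDHB12 from 1.89 to 2.56, the 2 genes with the highest mean. Probe sets differ in how strongly they bind, so these positions are relative to the arrays and give no order of RNA amounts between the genes.

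**Figure D1:**
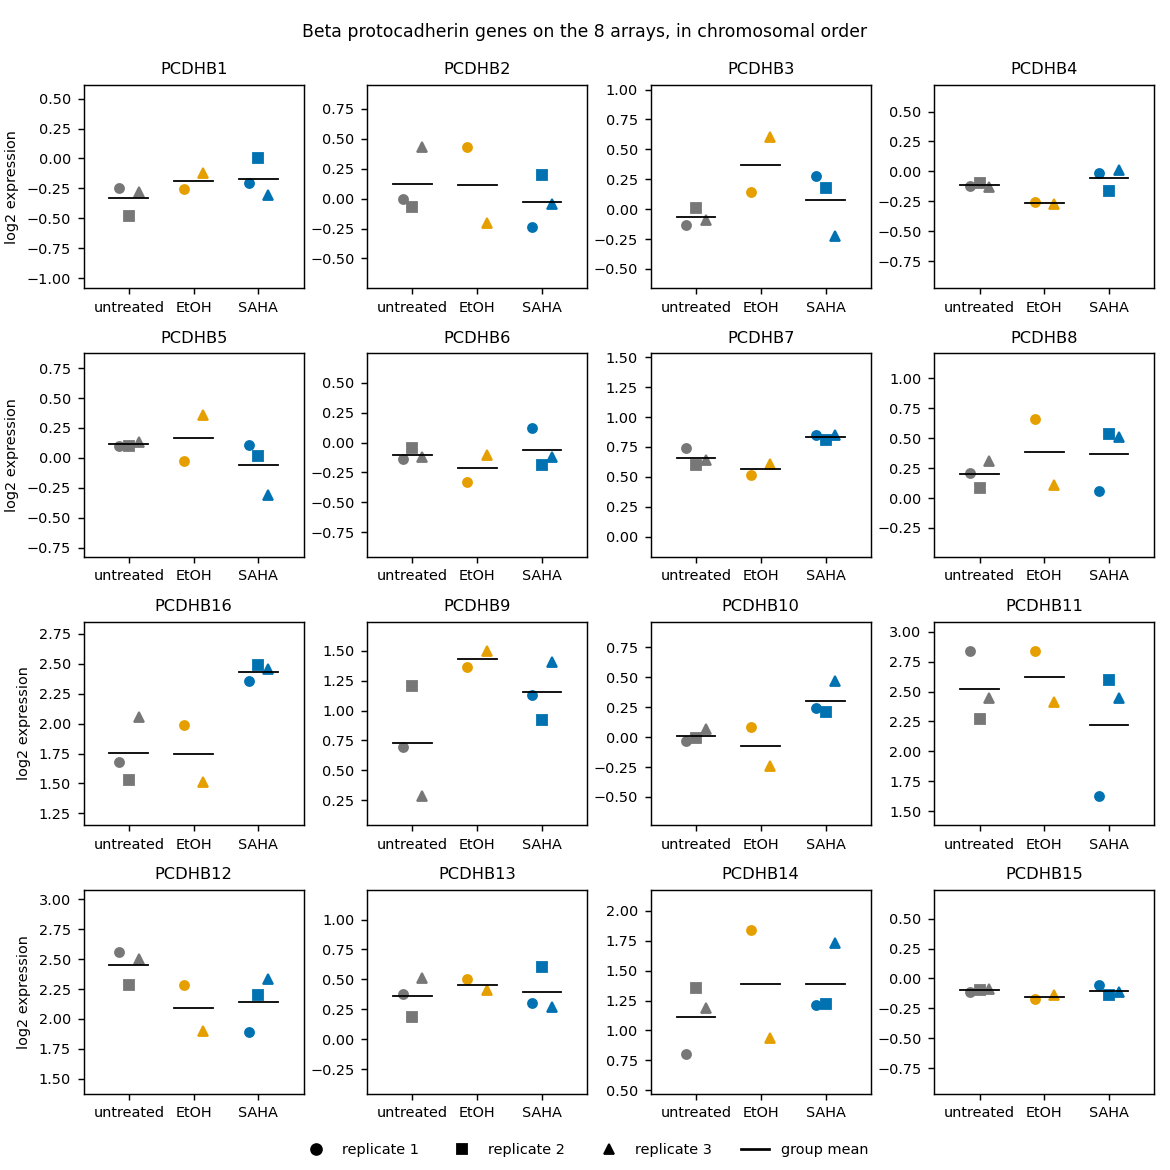
Log2 expression (vertical axis) of the 16 beta genes on the 8 arrays, grouped as untreated, EtOH and SAHA, with panels in the order of the genes on the chromosome. Symbols mark the replicate number and black lines the group means, and each panel spans the same number of log2 units around its own level. The 3 SAHA arrays lie above all 5 control arrays in PCDHB7, PCDHB16 and PCDHB10 and overlap them in the other 13 panels.

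PCDHB16 showed the largest difference between SAHA and control cells. It measured 1.68, 1.53 and 2.06 (log2) in untreated replicates 1, 2 and 3, 1.98 and 1.51 in EtOH replicates 1 and 3, and 2.36, 2.49 and 2.45 in SAHA replicates 1, 2 and 3. Every SAHA array lay above every control array. The mean was 2.43 ± 0.07 (SD, n = 3) with SAHA and 1.75 ± 0.25 (SD, n = 5) in the controls. The log2 fold change was 0.68 ± 0.14 (SE from limma, 95% interval 0.37 to 0.99), a fold of 1.60, with an adjusted p of 0.053 from limma. A call needed a fold of 1.5 or more and an adjusted p below 0.05, so PCDHB16 passed the fold and missed the p. Its untreated and EtOH means were 1.75 and 1.75.

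PCDHB10 and PCDHB7 were the other 2 genes whose SAHA arrays all lay above the controls. PCDHB10 measured -0.032, -0.0089 and 0.069 in untreated cells, 0.088 and -0.24 with EtOH, and 0.24, 0.21 and 0.47 with SAHA. It lay above the array median on 1 array only, SAHA replicate 3, so its values stand low on the scale. Its log2 fold change was 0.33 ± 0.11 (SE), with a limma adjusted p of 0.18. PCDHB7, named after its values were seen, measured 0.74, 0.60 and 0.64 in untreated cells, 0.51 and 0.61 with EtOH, and 0.85, 0.80 and 0.85 with SAHA. Its log2 fold change was smaller, 0.21 ± 0.09 (SE), with a limma adjusted p of 0.27. Over all genes, every SAHA array lay above every control array in 4.21% and below in 6.25%, against 3 and 0 of the 16 beta genes. In the RefSeq order the 3 genes lie in a run of 5, as PCDHB7, PCDHB8, PCDHB16, PCDHB9 and PCDHB10. PCDHB8 and PCDHB9, which flank PCDHB16, overlapped between the groups. PCDHB8 had a log2 fold change of 0.09 ± 0.16 (SE) and PCDHB9 of 0.15 ± 0.25 (SE).

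The largest differences below 0 were those of PCDHB11, PCDHB5 and PCDHB12, and in each of them the groups overlapped. PCDHB11 measured 2.84, 2.27 and 2.45 in untreated cells, 2.84 and 2.41 with EtOH, and 1.63, 2.60 and 2.44 with SAHA. SAHA replicate 1 was the lowest of its 8 arrays, while SAHA replicate 2 lay above 3 of the 5 controls. Its log2 fold change was -0.34 ± 0.22 (SE), with a limma adjusted p of 0.50. Without SAHA replicate 1 it was -0.04, and without replicate 1 of every group it was 0.14. PCDHB5 measured 0.10, 0.10 and 0.14 in untreated cells, -0.024 and 0.36 with EtOH, and 0.11, 0.019 and -0.31 with SAHA. It had a log2 fold change of -0.20 ± 0.12 (SE), with a limma adjusted p of 0.48. PCDHB12 measured 2.56, 2.29 and 2.50 in untreated cells, 2.28 and 1.90 with EtOH, and 1.89, 2.20 and 2.34 with SAHA. The lowest SAHA array lay just under the lowest EtOH array, and the log2 fold change was -0.16 ± 0.16 (SE), with a limma adjusted p of 0.67.

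The remaining beta genes had log2 fold changes between -0.15 (PCDHB2) and 0.16 (PCDHB14), with adjusted p-values of 0.58 or more. PCDHB14 measured 0.80, 1.35 and 1.19 in untreated cells, 1.84 and 0.94 with EtOH, and 1.21, 1.22 and 1.73 with SAHA, so its highest and its 2 lowest arrays were all controls. Across all arrays PCDHB2 ran from -0.24 to 0.44, PCDHB8 from 0.060 to 0.66 and PCDHB13 from 0.19 to 0.60, with SAHA and control arrays overlapping in each. PCDHB13 gave -0.0040 ± 0.113 (SE), the value nearest to 0.

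Counted together, 0 of 16 beta genes were called by limma between SAHA and the combined controls, where 136 of all 18508 genes (0.735%) were called. At an unadjusted p under 0.05, limma counted 3 beta genes (PCDHB7, PCDHB10 and PCDHB16) beside 15.4% of all genes. With the replicate number as a block, limma called 0 beta genes and 0.27% of all genes, and 2 beta genes and 8.72% of all genes had an unadjusted p under 0.05. The methods' t-test called 0 beta genes and 0.0486% of all genes, and 3 and 14.3% had an unadjusted p under 0.05. The median log2 fold change of the 16 genes was 0.09, with 10 above and 6 below 0, and that of all genes was -0.03. It was 0.03 without SAHA replicate 2, 0.04 without SAHA replicate 3, 0.05 without untreated replicate 2 and 0.06 without untreated replicate 3. The sign of the log2 fold change stayed the same under every alternative in 4 genes (PCDHB4, PCDHB7, PCDHB10 and PCDHB16) and turned under at least 1 in the other 12. In PCDHB7, PCDHB10 and PCDHB16 every SAHA array lay above every control array, so leaving out arrays could not have turned the sign. For 12 of the 16 genes the 95% interval lay within a fold of 1.5 in either direction, and for 4 it reached that fold. With the replicate number as a block, 11 lay within it.

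**Figure D2:**
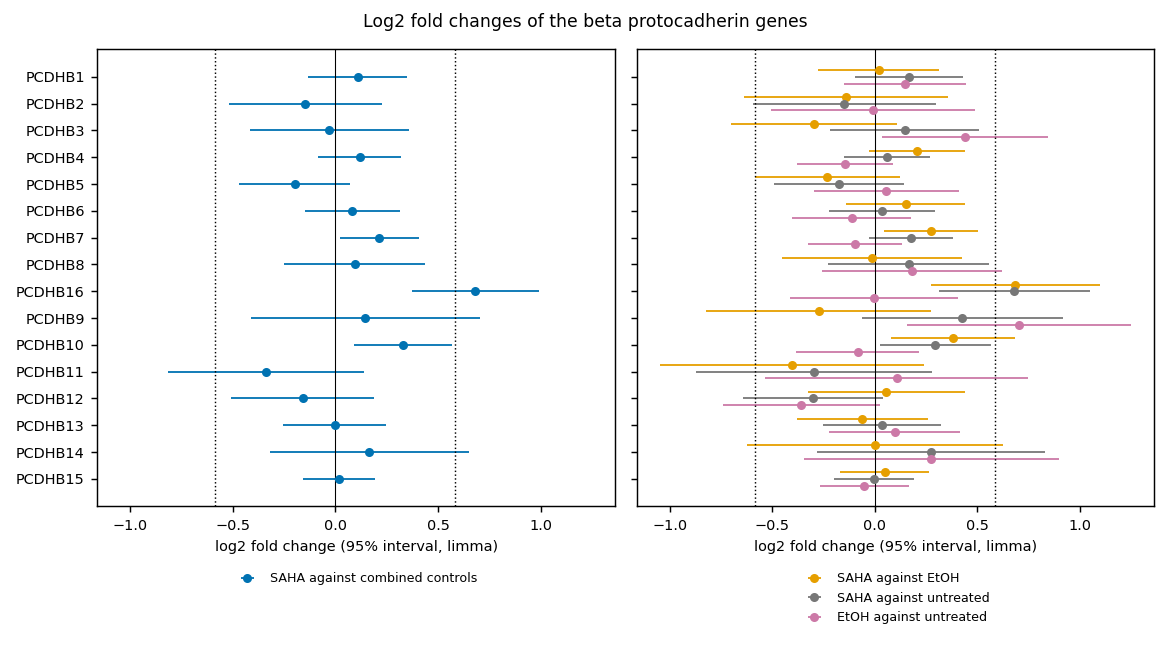
Log2 fold changes (horizontal axes) of the 16 beta genes with 95% intervals from limma, on the left for SAHA against the combined controls and on the right for SAHA against EtOH, SAHA against untreated and EtOH against untreated. Dotted lines mark a fold of 1.5. PCDHB16 lies at 0.68 in all 3 comparisons of SAHA and at -0.01 between EtOH and untreated cells.

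The control groups were also compared with SAHA separately. These comparisons share the SAHA arrays with each other and their controls with the combined comparison, so their values are given side by side. PCDHB16 had a log2 fold change of 0.68 against EtOH (SE 0.18, limma adjusted p 0.21) and of 0.68 against untreated cells (SE 0.16, limma adjusted p 0.090). PCDHB10 had 0.38 against EtOH (SE 0.13) and 0.30 against untreated cells (SE 0.12). PCDHB7 had 0.27 (SE 0.10) and 0.18 (SE 0.09). PCDHB12 lay on both sides of 0, with 0.05 against EtOH and -0.30 against untreated cells. PCDHB9 did too, with -0.27 and 0.43.

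Against EtOH, limma called 0 of 16 beta genes beside 0.103% of all genes, and 3 had an unadjusted p under 0.05 beside 12.9%. Their median log2 fold change was 0.01, with 9 above and 7 below 0. Against untreated cells, limma called 0 beside 0.789% of all genes, and 2 had an unadjusted p under 0.05 beside 16.5%. With the replicate block the shares of all genes called were 0.0432% against EtOH and 0.135% against untreated cells, and 1 beta gene had an unadjusted p under 0.05 in each. Against untreated cells the median was 0.10, with 11 above and 5 below 0. In the main fit, where the 2 comparisons are tied in this way, the value of PCDHB16 was the same at 2 decimals with either control group. The sign differed between the control groups in 6 genes (PCDHB3, PCDHB8, PCDHB9, PCDHB12, PCDHB13 and PCDHB15).

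EtOH and untreated cells were compared, but the main fit does not isolate the vehicle. Replicate number 2 has no EtOH array, and with the means of the numbers made equal its untreated array is tied to its SAHA array. The untreated mean therefore carries part of the SAHA difference of that number. PCDHB9 measured 0.70, 1.21 and 0.28 in untreated cells, 1.36 and 1.498 with EtOH, and 1.13, 0.92 and 1.41 with SAHA. Both EtOH arrays lay above all untreated arrays, and the log2 difference of EtOH from untreated cells was 0.70 ± 0.24 (SE, limma adjusted p 0.44). That difference was 0.94 without untreated replicate 2 and 0.76 ± 0.27 (SE) with the replicate block. PCDHB3 measured -0.13, 0.014 and -0.091 in untreated cells, 0.14 and 0.60 with EtOH, and 0.28, 0.18 and -0.23 with SAHA. Its log2 difference of EtOH from untreated cells was 0.44 ± 0.18 (SE, limma adjusted p 0.49), and it was 0.67 without EtOH replicate 1 and 0.21 without EtOH replicate 3. Both genes were named after their values were seen. In 2 of 16 genes (PCDHB3, PCDHB9) the EtOH arrays lay above all untreated arrays and in 3 (PCDHB4, PCDHB12, PCDHB15) below, where 13.4% of all genes lay above and 12.1% below. Limma called 0 of 16 beta genes and 0% of all genes in this comparison, and at an unadjusted p under 0.05 it counted 2 beta genes and 9.75% of all genes (1 and 4.13% with the replicate block). With 2 EtOH arrays, a difference as large as that of PCDHB9 did not pass the threshold.

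Within each replicate number, SAHA was set against the mean of the control arrays of that number, which for number 2 is a single untreated array. PCDHB16 differed by 0.53, 0.96 and 0.67 log2 units in numbers 1, 2 and 3. PCDHB10 differed by 0.21, 0.21 and 0.55, and PCDHB7 by 0.22, 0.21 and 0.22. These 3 genes were above 0 in all 3 numbers, 0 genes were below 0 in all 3, and 13 were mixed. For the 3 genes above 0 this follows from every SAHA array lying above every control array. Over all genes 10.7% were above and 17.8% below in all 3. PCDHB11 differed by -1.21, 0.32 and 0.02, so that number 1 alone gave its negative mean. PCDHB5 differed by 0.07, -0.08 and -0.56, and there number 3 gave the largest part. The median over the 16 genes was 0.08, 0.19 and 0.08 in numbers 1, 2 and 3, beside -0.06, -0.02 and -0.02 over all genes. Of the 16 genes, 10, 9 and 9 were above 0.

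**Figure D3:**
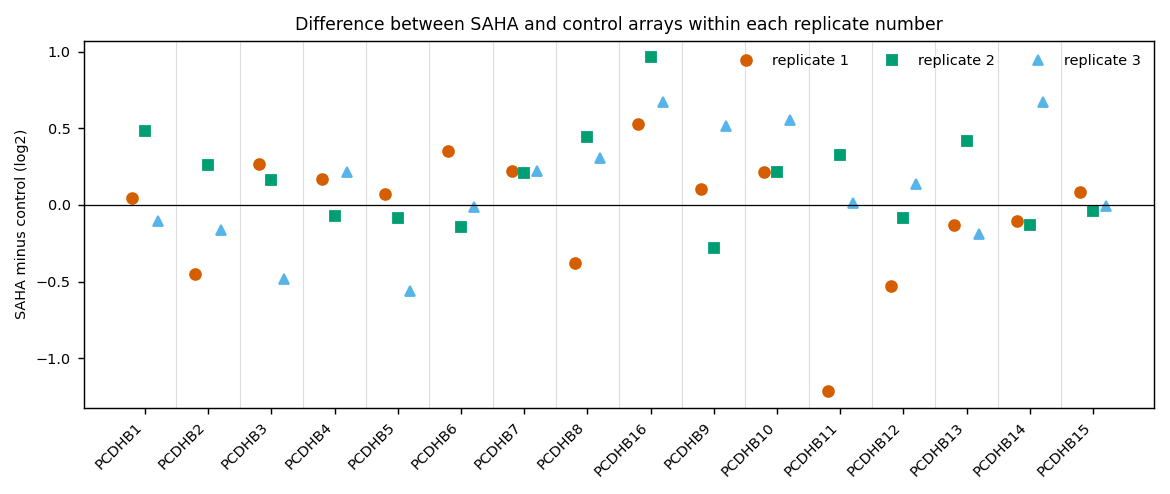
Log2 difference (vertical axis) between the SAHA array and the mean of the control arrays of the same replicate number, for each beta gene in the order of the chromosome. Symbols and colours mark numbers 1, 2 and 3, and the horizontal line marks no difference. PCDHB16, PCDHB10 and PCDHB7 have all 3 symbols above the line, and PCDHB11 has its number 1 symbol at -1.21.

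The value of PCDHB16 moved little with the processing, while its adjusted p moved across the threshold. Over 18 alternatives its log2 fold change was 0.62 to 0.76 and its adjusted p 0.021 to 0.18 in limma and 0.16 by the methods' t-test, and it was called in 5 of them. It was called after quantile normalization (0.72, adjusted p 0.043), after median centring of the arrays (0.72, adjusted p 0.041), with the dimmest genes left out (0.68, adjusted p 0.043), with array weights (0.76, adjusted p 0.021) and without untreated replicate 3 (0.76, adjusted p 0.038), all from limma. With the replicate number as a block it was 0.70 ± 0.17 (SE), with a limma adjusted p of 0.18. With all arrays of 1 replicate number left out, an alternative added after seeing the data, it was 0.77, 0.60 and 0.69, with limma adjusted p-values of 0.25, 0.23 and 0.20. PCDHB16 was above the controls in each of these fits. With every SAHA array above every control array, leaving out arrays could not have changed that. Whether it was called depended on the choice, and all 5 calls came from fits without the replicate block. Of the other 15 beta genes, 0 were called under any of these alternatives.

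**Figure D4:**
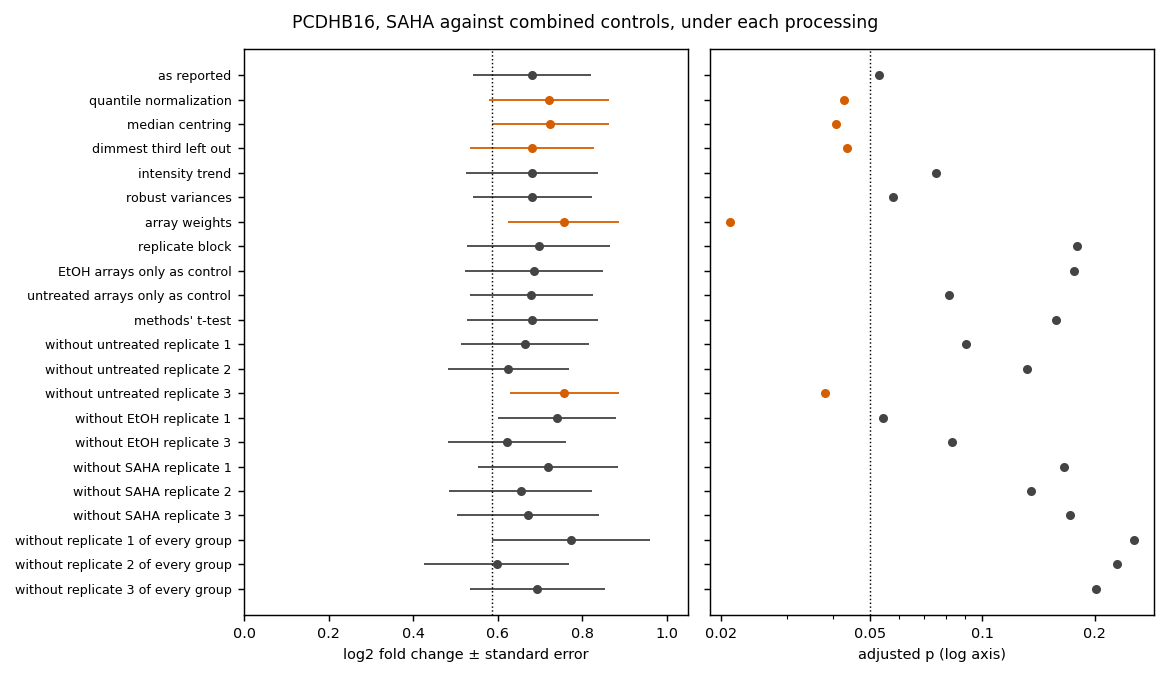
PCDHB16 in SAHA against combined controls as reported and under each alternative, with the log2 fold change and its SE on the left and the adjusted p (log axis) on the right. Dotted lines mark a fold of 1.5 and an adjusted p of 0.05, and orange marks the alternatives under which the gene was called. The log2 fold change stays between 0.60 and 0.77, and the adjusted p lies on both sides of its line.

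Genes that act on or with the clustered protocadherins were described by lists. Beside the counts of each list stand the shares over all genes in limma, 0.735% called and 15.4% with an unadjusted p under 0.05. Cohesin and CTCF, which bring the promoters to enhancers, were measured by 10 genes, and 0 were called and 3 had an unadjusted p under 0.05, with 2 values above and 8 below 0 and a median of -0.14. PDS5A and PDS5B, which regulate how long cohesin stays on DNA, had log2 fold changes of -0.64 ± 0.16 (SE, limma adjusted p 0.098) and -0.59 ± 0.18 (SE, limma adjusted p 0.16). All 3 SAHA arrays of PDS5A lay below the controls, at 2.46, 3.17 and 2.99 against 3.32 to 3.77, as was so in 6.25% of all genes. Those of PDS5B did too, but narrowly, with the highest SAHA array at 1.1998 and the lowest control at 1.2094.

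Silencing factors were measured by 14 genes, with 0 called, 1 at an unadjusted p under 0.05 and a median of -0.0042. DNMT1, which copies DNA methylation to new strands, measured 1.07, 1.17 and 0.91 in untreated cells, 0.92 and 1.18 with EtOH, and 0.55, 0.53 and 0.44 with SAHA. Its SAHA arrays all lay below the controls, as was so in 6.25% of all genes. Its log2 fold change of -0.54 ± 0.10 (SE, limma adjusted p 0.035) passed the p and fell short of a fold of 1.5, and with the replicate number as a block its adjusted p was 0.19. SMCHD1, which keeps protocadherin promoters silent, had -0.32 ± 0.16 (SE, limma adjusted p 0.36).

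Adhesion genes outside the clusters held the only call among the lists. Of 26 cadherins and catenins, 1 was called higher, 0 lower and 5 had an unadjusted p under 0.05. CDH11, a cadherin of mesenchymal cells, rose from 5.12 ± 0.10 (SD, n = 5) in the controls to 5.73, 5.76 and 5.84 with SAHA. The log2 fold change of CDH11 was 0.66 ± 0.09 (SE, limma adjusted p 0.011). Its call was lost with EtOH arrays alone as control (limma adjusted p 0.13), with the replicate block (0.081), without SAHA replicate 3 (0.072) and without replicate 1, 2 or 3 of every group (0.18, 0.087 and 0.17). The 12 non-clustered protocadherins, which share the cadherin domains, had 0 calls, 1 unadjusted p under 0.05 and a median log2 fold change of 0.05, with 9 values above 0. PCDH9 had 0.32 ± 0.13 (SE, limma adjusted p 0.27). PCDH18, above the array median on all 8 arrays, had 0.21 ± 0.17 (SE, limma adjusted p 0.58).

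The partners through which protocadherins signal were measured by 17 genes, with 0 calls, 2 at an unadjusted p under 0.05 and a median of -0.05. PTK2B, a kinase that protocadherins of the other clusters inhibit, had -0.63 ± 0.23 (SE, limma adjusted p 0.22), with SAHA replicate 1 at 0.62 and the other SAHA arrays at 1.63 and 1.52. Its SAHA arrays all lay below the controls, as was so in 6.25% of all genes, but the highest was at 1.627 and the lowest control at 1.633. WASF3 of the actin-regulating WAVE complex had 0.31 ± 0.13 (SE, limma adjusted p 0.27). The proteases that shed and cut protocadherins were measured by 7 genes, with 0 calls, 3 at an unadjusted p under 0.05 and a median of -0.03. PSEN2, a subunit gene of gamma-secretase, had -0.47 ± 0.17 (SE, limma adjusted p 0.23).

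Neighbours on the same chromosome arm were measured by 20 genes, with 0 calls, 2 at an unadjusted p under 0.05 and a median of -0.08. TAF7, a general transcription factor gene near the beta cluster, measured 2.43, 2.62 and 2.35 in untreated cells, 2.08 and 2.05 with EtOH, and 2.18, 1.84 and 2.29 with SAHA. Its SAHA and EtOH arrays all lay below the untreated ones. Over all genes, every EtOH array lay below every untreated array in 12.1%, and no such share was counted for SAHA against untreated arrays. SLC25A2, a mitochondrial carrier gene that also lies near the cluster, measured -0.32 to -0.16 on all arrays, with a log2 fold change of -0.00044 ± 0.085 (SE).

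Of the marker lists, limma called 0 genes in each. At an unadjusted p under 0.05 there were 4 of 10 adipose stromal markers, 2 of 13 neuronal, 2 of 7 endothelial and 2 of 7 blood markers, beside 15.4% of all genes. ITGB1 and ANPEP of the stromal list had 0.35 each, SYP of the neuronal list 0.48, TEK and VWF of the endothelial list 0.59 and -0.48, and CD3E and CD34 of the blood list -0.41 and 0.29. With the replicate block these counts were 3, 1, 2 and 1 in the same order, beside 8.72% of all genes. In the same fit they were 2 for cohesin and CTCF, 1 for silencing factors, 2 for cadherins and catenins, 0 for non-clustered protocadherins, 1 for signalling partners, 1 for the shedding proteases and 0 for the neighbours. The part of these differences in the values of the beta genes was not tested.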

How the data were processed

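RNA of 3 SAHA, 2 EtOH and 3 untreated cultures was hybridized to Clariom S human arrays. The authors normalized the arrays by RMA in the oligo package, removed 1 EtOH array whose intensity was low and deposited log2 values, 1 for each of 18508 genes and array. They were used as deposited, with no filter or imputation, in limma 3.58.1 (R 4.3.3). Following the study's methods, SAHA was compared with EtOH and untreated combined by linear models with moderated variances, adjusted by Benjamini-Hochberg over all genes. A call needed a fold of 1.5 or more and an adjusted p below 0.05. A 3-group fit over all 8 arrays gave the other comparisons. The fits were tested on simulated data. The number of arrays limits the precision.

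The members and lists were chosen with earlier results of these data known. Named genes were called members, the 2 largest differences in each direction, the 2 highest means, SLC25A2 and TAF7, the defining markers, and of each list the called genes, or else the 2 largest differences. Other genes were named after their values were seen. The result of 1 gene that the rule names is not reported here.

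The alternatives were quantile normalization, median centring, leaving out the dimmest 1 in 3 genes (12339 genes and 12 members left), an intensity trend, robust variances, array weights, the replicate block, either control group alone, the methods' t-test, each array left out, and, added after the data were seen, all arrays of 1 replicate number left out. In the labels, p6, p10 and p16 stand beside replicates 1, 2 and 3 of each group, with no meaning given. The main fit leaves the replicate numbers out. Whether they pair the arrays cannot be read from correlations, which the centring lowers. RefSeq tables (GRCh38.p14) gave gene order and promoters. Raw array files, proteomics and qPCR were not used here.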

Additional observations from a re-analysis of the deposited data

How the results depend on the processing

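The count of beta genes called between SAHA and combined controls was 0 as reported and 1, PCDHB16, with array weights, median centring, quantile normalization or the dimmest genes left out. Leaving out each array in turn gave 0 to 1, with 1 without untreated replicate 3. With the replicate block it stayed 0, and the adjusted p of PCDHB16 was 0.18 (limma). No other call among the beta genes changed with the block. The median of the 16 log2 fold changes moved from 0.09 to 0.0099 with EtOH arrays alone as control, was 0.03 to 0.09 with each array left out, and was 0.0052 without replicate 2 of every group. The count of list genes called was 1 as reported, 0 with EtOH arrays alone, 0 with the replicate block, 2 with untreated arrays alone and 0 to 1 with each array left out, 0 being the count without SAHA replicate 3. Of the 16 genes, 12 turned sign under at least 1 alternative, 6 of them with 1 array left out (PCDHB3, PCDHB6, PCDHB9, PCDHB13, PCDHB14 and PCDHB15). Examples are PCDHB12 with EtOH arrays alone (0.055), PCDHB12 and PCDHB11 without replicate 1 of every group (0.043 and 0.14) and PCDHB5 without replicate 3 of every group (0.0035). PCDHB9 was -0.27 with EtOH arrays alone. The cause was not tested. Over all genes, 81 were called higher and 55 lower as reported, 36 and 14 with the replicate block, 5 and 4 by the methods' t-test, 20 and 10 without SAHA replicate 3, 99 and 37 after median centring, and 105 and 50 after quantile normalization. Calls in either direction over all genes were 0 without replicate 1 or 3 of every group. Against untreated cells they were 146 as reported, 25 with the replicate block, 30 to 102 with each array left out and 0 without replicate 1 or 3 of every group. Against EtOH they were 19 as reported, 8 with the block and 0 to 19 with each array left out. Genes near the low end of the scale, PCDHB1, PCDHB4, PCDHB6 and PCDHB15 among them, leave little room for a fall, and PCDHB16 rests on 8 arrays whose replicate differences had been taken out.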
